A study of Mus musculus with 6 samples.

Results

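The 10 genes described here encode the enzymes that make and break down polyamines and the proteins that set the level of ornithine decarboxylase. They are Odc1, Amd1, Srm and Sms for synthesis, Sat1, Smox and Paox for catabolism, and Oaz1, Oaz2 and Azin1 for the antizyme system. They were taken by gene symbol, 10 of the 54532 genes in the count and FPKM tables. All 10 passed the expression filter of edgeR, as did 14679 genes in all.

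The libraries came from primary myoblasts, the proliferating muscle progenitor cells that grow out of dissociated muscle, here from the hind limbs of mice 3 weeks old on a C57BL/6j background. Cells were grown in DMEM with 10% fetal bovine serum and FGF and taken at day 2 of proliferation. In eIF5A-KO mice, tamoxifen induces a Cre recombinase expressed from Pax7 (Pax7-CreERT2/+), which deletes the floxed alleles of eIF5A (eIF5A f/f), so that only cells with an active Pax7 gene, the satellite cells and their progeny, can lose the gene. WT libraries came from littermates without the deletion, for which the paper's text and a legend name the control genotype differently (Pax7-CreERT2/+ or Pax7 +/+; eIF5A f/f). The paper gave tamoxifen to adult KO and WT mice and does not say whether the WT littermates used here received it. There were 3 libraries per genotype. A legend calls the RNA-seq triplicate experiments, but neither it nor the labels say whether the 3 came from separate mice or cultures, so that every p-value below measures the spread between these libraries, of which a part may be technical.

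Polyamines are small positively charged molecules that bind RNA and DNA, and proliferating cells need them. Ornithine decarboxylase turns ornithine into putrescine, and aminopropyl groups taken from decarboxylated S-adenosylmethionine are then added to give spermidine and after it spermine. Spermidine is also the substrate for hypusine, the modified lysine on which eIF5A depends for its work in translation, and this ties the pathway to the gene deleted here. Cells lower polyamines by acetylation and oxidation, and by antizymes, proteins that bind ornithine decarboxylase and carry it to the proteasome.

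Antizymes sense polyamines while they are being translated. The ribosome reaches a stop codon early in the message, and polyamines favour a slip forward by a single base that lets it read on into the rest of the protein. The mouse sites are shown because they are the control point of both antizyme genes measured here. They are given 5′ to 3′ from GENCODE M21 transcripts on GRCm38, with the last sense codon of the first frame and its stop codon in capitals. The Oaz1 site lies at chr10:80828280-80828309 and the Oaz2 site at chr9:65686257-65686286, both on the plus strand.
Oaz1: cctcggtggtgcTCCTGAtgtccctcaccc
Oaz2: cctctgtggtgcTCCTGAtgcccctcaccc
In the annotation, 3 of the 6 coding models of Oaz1 and 2 of the 4 of Oaz2 leave out exactly 1 base at this site so that the full reading frame can be written down. A count of reads per gene measures the amount of the message and not how often the ribosome slips, and it likewise does not measure the amount or activity of any of the enzymes.

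Between 16281216 and 17734551 reads were counted on genes per library, and the 10 genes took between 0.158% and 0.211% of them. WT replicate 1 stood apart, with 5.75% of counts on mitochondrial transcripts against 2.11% to 3.50% in the other libraries, and it held the highest WT value of 9 of the 10 genes (41.1% of all tested genes were highest there among WT). Eif5a itself, the targeted gene, was at 1602.6, 986 and 1238.2 CPM (counts scaled to effective library size) in WT. Under the eIF5A-KO label it was at 1364.4, 1459.2 and 1059.3 CPM, and the fitted log2 change was 0.02 (SE 0.23, adjusted p = 0.993 by edgeR). The message as counted was not lower where the label says the gene was deleted, so the KO libraries are called by their label throughout, and the directions below rest on those labels. The paper measured the knockout in satellite cells of adult mice, by RT-qPCR of the message and immunostaining of the protein, and reports it as successful. Myogenic markers were present in every library (summed level of 6 genes 600.1 to 1502 CPM in WT and 595 to 1110 CPM in KO), and so were endothelial markers (922 to 2016 and 1665 to 2657 CPM), fibroblast markers (1723 to 2436 and 1679 to 2228 CPM), mural markers (329 to 577 and 659 to 722 CPM) and macrophage markers (59.7 to 129.9 and 65.0 to 160.2 CPM). Of the 6 myogenic markers, 5 were fitted lower and 1 higher in KO, and Pax7, the satellite cell factor, had a log2 fold change of -1.50 (edgeR unadjusted p = 0.0069, adjusted p = 0.484), with overlap between genotypes (12.9 to 51.7 CPM in WT and 8.29 to 12.97 CPM in KO). It was -0.84 without WT replicate 2 and -1.85 without WT replicate 1, where it passed the threshold (edgeR adjusted p = 0.0278), as it did without a filter on low counts (edgeR adjusted p = 5.39e-07). All 6 mural markers were fitted higher, with Myh11 of smooth muscle at 1.52 (adjusted p = 0.0486 by edgeR) and Pdgfrb and Cspg4 at 0.81 and 0.77 (edgeR unadjusted p = 0.00323 and 0.0199). The call of Myh11 was lost in 11 of 19 alternatives, 5 of the 6 that left out a library among them, with adjusted p from 3.65e-10 (DESeq2) to 0.315 (edgeR without WT replicate 3) and a log2 fold change of 1.06 to 1.58. All 6 endothelial markers were fitted higher too, with Emcn at 0.51 (edgeR unadjusted p = 0.0228). Directions were mixed for fibroblast markers (2 higher and 4 lower, Col1a1 at 0.72 with edgeR unadjusted p = 0.0106) and macrophage markers (4 higher and 2 lower, Cd68 at 0.84 with edgeR unadjusted p = 0.0338, and at 0.52 with edgeR unadjusted p = 0.161 without KO replicate 1). The part these cells have in the levels below was not tested, and in bulk RNA fewer cells of a type and less RNA per cell cannot be told apart.

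None of the 10 genes passed an adjusted p of 0.05 between KO and WT in edgeR's quasi-likelihood test, against 0.0204% of the 14679 tested genes. At an unadjusted p under 0.05 the count was also 0, against 6.76% of tested genes, and it was 0 with DESeq2 (6.87% of tested genes) and with limma-voom (6.55%). With the further demand of a fold over 2 it was again 0 (edgeR, 1.85% of tested genes). Fitted levels were higher in KO for 5 genes and lower for 5, with a median log2 fold change of 0.00 over the 10 and of -0.01 over all tested genes. This even split held without KO replicate 2 (5 and 5, median -0.02) and moved without any other single library. Over all tested genes the median stayed between -0.02 and 0.01 in these fits. Without WT replicate 1, 9 genes were fitted higher and 1 lower (median 0.17), without WT replicate 2, 3 and 7 (median -0.13), without WT replicate 3, 2 and 8 (median -0.11), without KO replicate 1, 3 and 7 (median -0.07), and without KO replicate 3, 7 and 3 (median 0.11). All 10 of the 95% confidence intervals included 0, and none reached a log2 change of 1 in either direction, the farthest bound being -0.78 for Sms. Changes within these intervals are not excluded with 3 libraries per genotype, and the smallest change that could be detected was not computed.

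**Figure D1:**
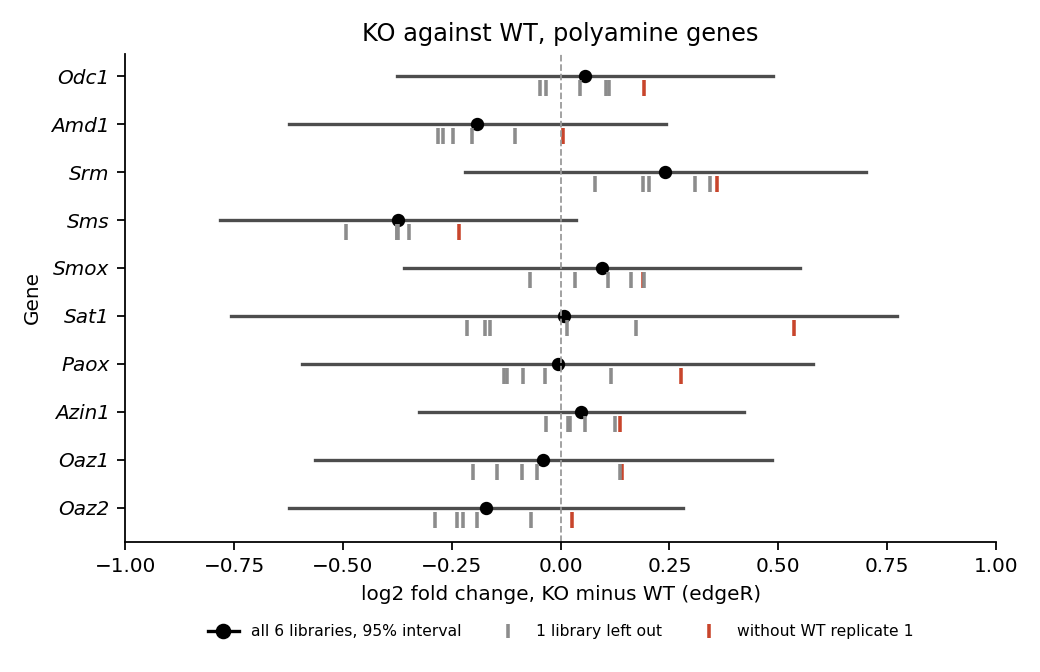
The log2 fold change from WT to KO libraries of each gene (horizontal axis, edgeR) is a black point with its 95% interval, and the ticks under it are the values after leaving out 1 library, in red for WT replicate 1. All intervals include 0 and lie within 1 of it, Sms lies farthest to the left, and Sat1 moves farthest to the right without WT replicate 1.

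Per gene length, the pathway was expressed in steps. In FPKM, read fragments divided by gene length and here by a size factor of the library, WT means were 150.0 ± 23.7 for Odc1, 148 ± 29.3 for Oaz1, 119 ± 24.8 for Srm and 112 ± 58.6 for Sat1 (SD, n = 3 here and below). Ranges over the libraries overlapped between neighbours among these 4, so that ornithine decarboxylase and the antizyme message that opposes it stood at like levels. A step lower came Amd1 at 32.0 ± 6.69 FPKM and Oaz2 at 28.2 ± 6.04 FPKM, which overlapped each other, and then Azin1 at 18.4 ± 2.01 FPKM. Smox at 7.77 ± 1.62 FPKM and Sms at 6.32 ± 1.10 FPKM overlapped in WT, and Paox was lowest at 1.92 ± 0.575 FPKM. The order was the same in KO, where Smox (8.35 ± 0.765 FPKM) and Sms (4.90 ± 0.105 FPKM) no longer overlapped.

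**Figure D2:**
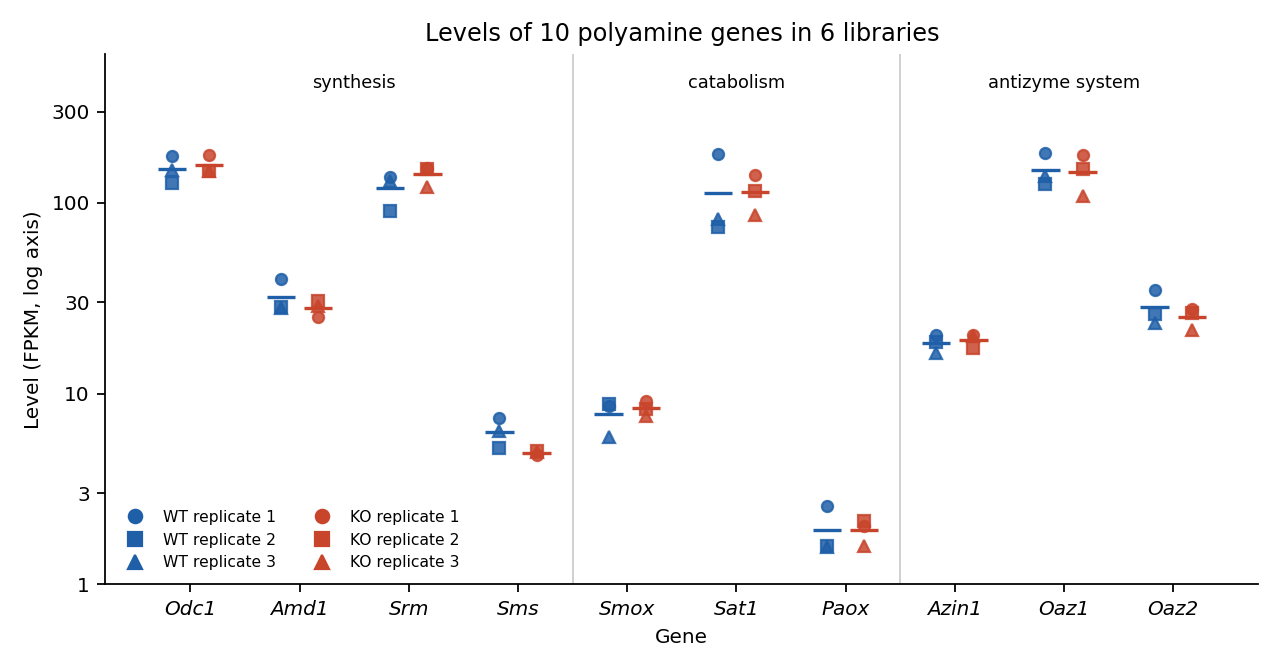
FPKM per library on a log axis for the 10 genes, grouped by role, with WT in blue, KO in red, marker shapes for replicates and lines for group means. The group means run from above 100 FPKM for Odc1, Oaz1, Srm and Sat1 down to about 2 FPKM for Paox, and WT and KO points interleave for every gene but Sms.

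Of the 4 synthesis genes, Odc1, Amd1 and Srm overlapped between genotypes and Sms was lower in every KO library than in any WT library, as were 6.83% of all tested genes. Odc1 (ENSMUSG00000011179, chr12:17544794-17551505, plus strand) encodes ornithine decarboxylase, the entry step. It was at 175, 127 and 148 FPKM in WT replicates 1 to 3 and at 177, 147 and 147 FPKM in KO. KO replicate 1 was slightly above the highest WT library and KO replicates 2 and 3 lay inside the WT range, and replicate 1 was highest in each genotype. The log2 fold change was 0.06 with a 95% interval from -0.38 to 0.49 (edgeR, adjusted p = 0.980). In fold terms the interval ran from 0.771 to 1.40.

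Amd1 (ENSMUSG00000075232, chr10:40287458-40302186, minus strand) encodes S-adenosylmethionine decarboxylase, which makes the aminopropyl donor for both later steps. Its levels were 39.7, 28.4 and 27.9 FPKM in WT and 25.1, 30.7 and 28.8 FPKM in KO. WT replicate 1 was above all other libraries, and the rest lay within a narrow band. The fitted change was -0.19 on the log2 scale (SE 0.19, adjusted p = 0.926 by edgeR), and it was 0.01 without WT replicate 1.

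Srm (ENSMUSG00000006442, chr4:148591503-148594993, plus strand) encodes spermidine synthase. Levels were 136, 90.3 and 129.9 FPKM in WT and 152, 150.2 and 121 FPKM in KO. The lowest library was WT replicate 2 and the 2 highest were KO replicates 1 and 2, with KO replicate 3 inside the WT range. The log2 fold change was 0.24 (95% interval -0.22 to 0.70, edgeR adjusted p = 0.912), and it was above 0 in every fit that left out a library, from 0.08 to 0.36.

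Sms (ENSMUSG00000071708, chrX:157443855-157492287, minus strand) encodes spermine synthase, which takes spermidine on to spermine. It was at 7.41, 5.21 and 6.34 FPKM in WT and at 4.78, 4.98 and 4.95 FPKM in KO, from 474 to 700 counts per library. The KO libraries lay close together and below WT replicate 2, the lowest of WT, by a small margin. Sms was alone among the 10 genes in that its genotypes did not overlap in CPM, and 12.5% of tested genes did not overlap in either direction. The mean level in KO was 0.772 of that in WT (95% interval 0.581 to 1.03), a log2 fold change of -0.37 (SE 0.18, unadjusted p = 0.0689 and adjusted p = 0.794 by edgeR). Without WT replicate 2 the change was -0.49 (edgeR, unadjusted p = 0.0208, adjusted p = 0.499), in a fit in which 8.82% of tested genes had an unadjusted p under 0.05. With libraries scaled by their size alone the unadjusted p was 0.0452 by edgeR, as it was under 0.05 for 6.58% of tested genes. The change was -0.23 without WT replicate 1, and the sign held in all 19 alternative fits.

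The 2 aminopropyl transferases thus had fitted changes of opposite sign, and their ratio within a library, which does not depend on how libraries are scaled, moved with the label. The ratio of Srm to Sms in FPKM was 18.3, 17.3 and 20.5 in WT and 31.8, 30.2 and 24.4 in KO. Every KO library was above every WT library, with means of 18.7 ± 1.62 and 28.8 ± 3.89. The difference of the mean log2 ratios was 0.62, and 0.54 to 0.73 when a library was left out. It is given as a description, with no test. Of the 6 ratios examined it alone had genotypes that did not overlap, and the ratios of 13.4% of all pairs of tested genes did not overlap.

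**Figure D3:**
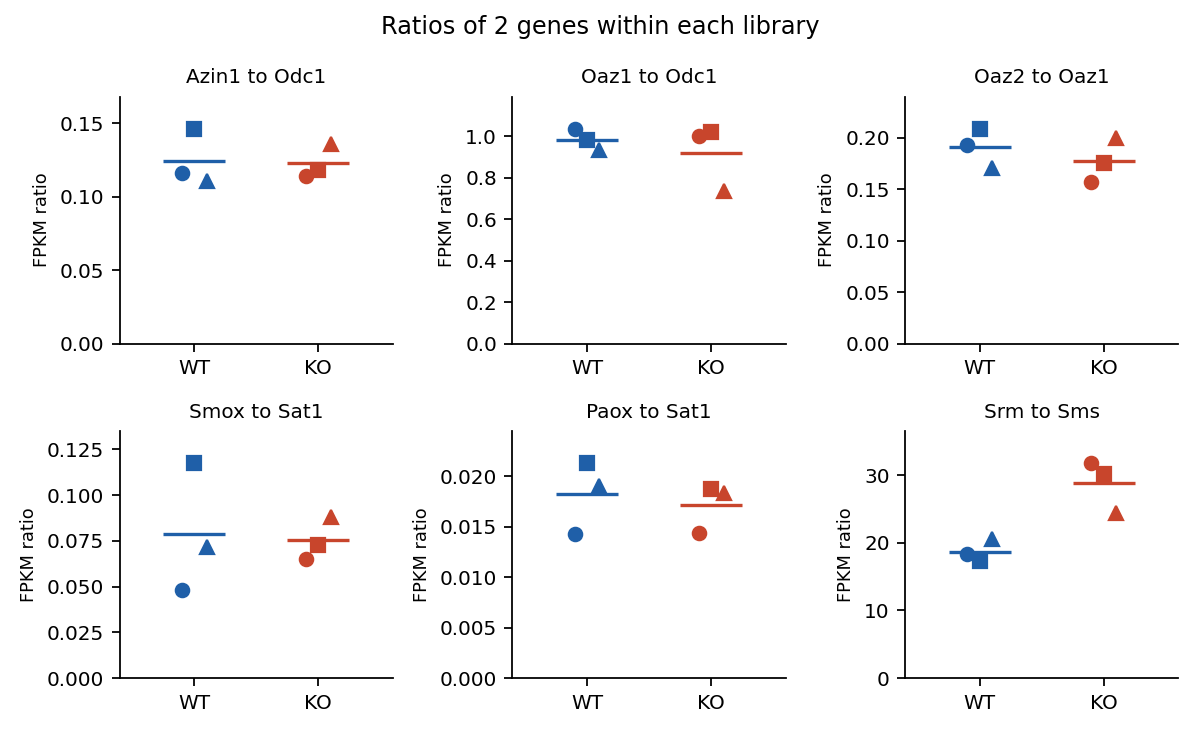
Each panel gives the ratio of 2 genes in FPKM within each library, for WT (blue) and KO (red), with a line at the group mean and an axis from 0. Only the ratio of Srm to Sms separates the genotypes, at 17.3 to 20.5 in WT and 24.4 to 31.8 in KO.

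The Sms values have to be read with a second locus. Sms-ps, an annotated processed pseudogene on the minus strand at chrX:62775585-62776685, matches the Sms message at every one of 1101 aligned bases. The first 60 coding bases are shown because a read from them cannot tell the loci apart. In Sms they are spread over an intron between 157470098 and 157491953 on chromosome X, and in the pseudogene they lie unbroken at chrX:62776626-62776685.
Sms: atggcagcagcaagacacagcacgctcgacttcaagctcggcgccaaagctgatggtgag
Sms-ps: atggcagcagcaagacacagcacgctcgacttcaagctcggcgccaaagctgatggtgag
How reads that fit several places were counted is not given in the sources used here. Sms-ps was at 14.5, 10.7 and 9.69 CPM in WT and at 9.97, 10.1 and 11.8 CPM in KO, and its counts were 25.2% to 39.7% of those on Sms. Unlike Sms, it overlapped between genotypes (log2 fold change -0.12, edgeR unadjusted p = 0.590). The sum of both loci was 59.7, 42.3 and 48.1 CPM in WT and 39.0, 40.2 and 41.7 CPM in KO, still with no overlap but with a gap of less than 1 CPM. With the reads of copies added, the change of Sms was -0.32 (edgeR, unadjusted p = 0.109, adjusted p = 0.822), and the ratio of Srm to this sum in CPM was 3.70, 3.45 and 4.36 in WT and 6.30, 6.01 and 4.65 in KO.

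**Figure D4:**
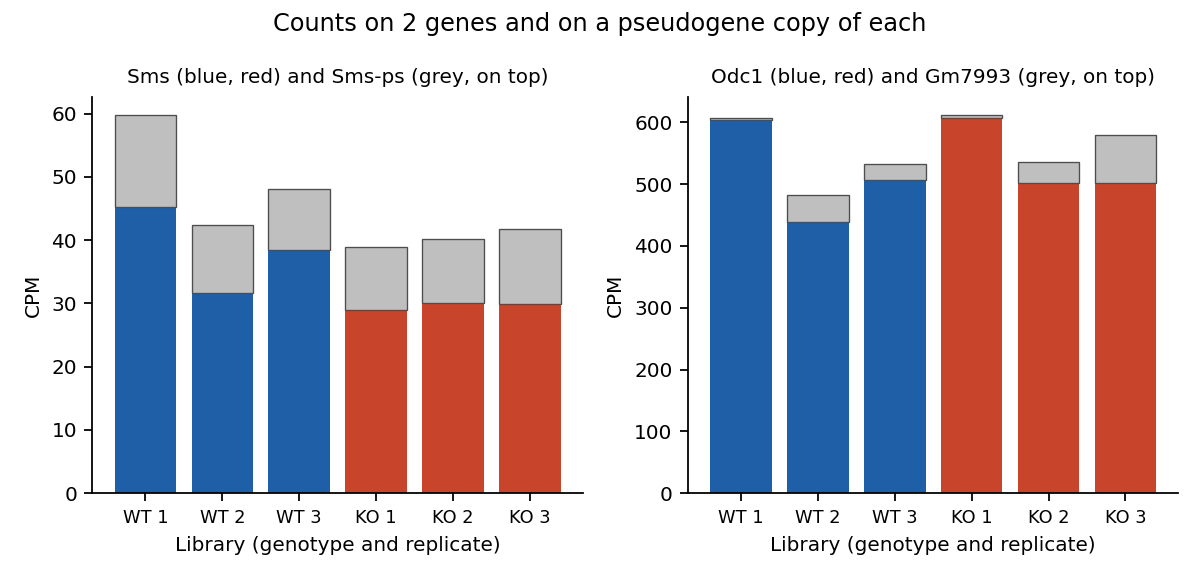
Stacked bars give CPM per library for Sms (left) and Odc1 (right), WT in blue and KO in red, with the CPM of the pseudogene copies Sms-ps and Gm7993 in grey on top. Counts on Sms-ps are 25.2% to 39.7% of those on Sms, and the grey share ranges from 0.471% to 15.7% of Odc1 for Gm7993.

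Odc1 has more annotated copies than any other of these genes except Paox, 14 that align with it for 200 bases or more and share at least 90% of them, of which 4 had 10 or more counts in a library (AW146154, Gm17709, Gm7993 and Gm9115). Gm7993, a processed pseudogene at chr5:95974240-95975623 on the plus strand with 95.29% identity over 1401 bases, differed most between libraries. It was at 2.84, 43.5 and 25.2 CPM in WT and at 3.67, 33.4 and 78.5 CPM in KO, a 27.6-fold range, while Odc1 itself ranged 1.38-fold. Each genotype held a library below 4 CPM and at least 1 above 30 CPM, so that the range was wide within both genotypes (log2 fold change 0.69, SE 0.97, edgeR unadjusted p = 0.495). The 60 bases from the start codon show how reads can separate these loci. They differ at 1 of 60 bases, in capitals, between Odc1 at chr12:17547299-17547358 and Gm7993 at chr5:95974240-95974299.
Odc1: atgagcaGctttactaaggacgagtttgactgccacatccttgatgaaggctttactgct
Gm7993: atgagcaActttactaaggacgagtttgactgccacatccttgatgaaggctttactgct
Odc1 and Gm7993 together were at 607, 482 and 532 CPM in WT and at 611, 536 and 579.9 CPM in KO, and the change of Odc1 with the reads of its copies added was 0.09. The other counted copies of Odc1 took at most 1.10% of its counts in any library.

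Among the other genes, copies of Paox took the largest shares of counts. Amd2, a protein-coding gene of 99.56% identity, and the pseudogene Amd-ps3 took at most 2.32% and 1.57% of the counts of Amd1, Oaz1-ps at most 0.594% of Oaz1 and Oaz2-ps at most 1.28% of Oaz2. Gm19680, a pseudogene of 99.93% identity to Paox over 1358 bases, had between 14 and 32 counts per library, 9.40% to 24.2% of those on Paox. Paox also matched Dubr, Galnt11 and Map3k2, but only over 297 to 313 bases of a repeat. Smox had no such copy, and those of Srm, Sat1 and Azin1 had fewer than 10 counts. Levels of Sms and Paox are therefore the least certain of the 10 where reads could be split.

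None of the 3 catabolic genes differed between genotypes beyond the spread of the libraries, and Sat1 had the widest spread of all 10 genes. Sat1 (ENSMUSG00000025283, chrX:155213132-155216449, minus strand) encodes spermidine/spermine N1-acetyltransferase, which acetylates polyamines for export or oxidation. It was at 179.9, 74.7 and 82.5 FPKM in WT and at 140.0, 114 and 86.5 FPKM in KO. WT replicate 1 was highest, KO replicates 1 and 2 came next, and the other 2 WT libraries and KO replicate 3 were close together at the bottom. The log2 fold change of 0.01 therefore had the widest interval, from -0.76 to 0.77 (edgeR, adjusted p = 0.998). Without WT replicate 1 it was 0.54 (95% interval 0.06 to 1.01, edgeR unadjusted p = 0.0300 and adjusted p = 0.427), in a fit in which 10.2% of tested genes had an unadjusted p under 0.05. The 3 libraries with most Sat1 were also those in which the 10 most abundant genes took the largest share of counts, 8.54%, 5.81% and 6.65% against 5.01% to 5.05% in the others, and the part of this in the result was not tested.

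Smox (ENSMUSG00000027333, chr2:131491496-131525922, plus strand) encodes spermine oxidase, which turns spermine directly back into spermidine. Levels were 8.64, 8.77 and 5.90 FPKM in WT and 9.12, 8.32 and 7.60 FPKM in KO. WT replicate 3 was lowest, the other 5 libraries lay together, and the log2 fold change was 0.09 (SE 0.20, adjusted p = 0.973 by edgeR). Smox alone among the 10 genes had its highest WT value in another library than WT replicate 1.

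Paox (ENSMUSG00000025464, chr7:140115799-140137224, plus strand) encodes the peroxisomal oxidase that acts on acetylated polyamines. It was at 2.58, 1.59 and 1.58 FPKM in WT and at 2.01, 2.15 and 1.59 FPKM in KO, from 132 to 199 counts per library. The order of the libraries was like that of Sat1, with WT replicate 1 and KO replicates 1 and 2 above the rest. The fitted log2 change was -0.01 (95% interval -0.59 to 0.58, edgeR adjusted p = 0.997), with a sign that turned in 8 of 19 alternative fits. Paox overlaps Echs1 on the opposite strand, and whether the counting used strand is not given in the sources used here.

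Spermine oxidase and the acetylation route were set against each other in each library. The ratio of Smox to Sat1 in FPKM was 0.0480, 0.117 and 0.0715 in WT and 0.0652, 0.0727 and 0.0878 in KO. All 3 KO values lay inside the WT range. The ratio of Paox to Sat1 was 0.0143, 0.0213 and 0.0191 in WT and 0.0144, 0.0188 and 0.0184 in KO, again inside the WT range.

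The antizyme system overlapped between genotypes for all 3 genes. Oaz1 (ENSMUSG00000035242, chr10:80826656-80829290, plus strand), the main antizyme in most tissues, was at 181, 125 and 138 FPKM in WT and at 177, 149.7 and 108 FPKM in KO. Replicate 1 was highest in each genotype and KO replicate 3 was lowest of all. The log2 fold change was -0.04 with a 95% interval from -0.56 to 0.48 (edgeR, adjusted p = 0.988), and its sign turned in 2 of 19 alternative fits. Oaz1 alone among the 10 genes had a larger coefficient of variation over the KO libraries (24.3%) than over WT (20.2%).

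Oaz2 (ENSMUSG00000040652, chr9:65668001-65690300, plus strand) encodes a second antizyme with the same kind of frameshift site, shown above. Levels were 35.0, 26.1 and 23.5 FPKM in WT and 27.7, 26.3 and 21.6 FPKM in KO. WT replicate 1 was above the other 5 libraries, and the log2 fold change was -0.17 (SE 0.20, adjusted p = 0.942 by edgeR) with all libraries and 0.03 without it. Oaz2 stood at 0.194, 0.209 and 0.171 of Oaz1 in WT and at 0.157, 0.176 and 0.200 of it in KO, and these ranges overlapped.

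Azin1 (ENSMUSG00000037458, chr15:38487427-38519266, minus strand) encodes an inactive relative of ornithine decarboxylase that binds antizyme and so frees the enzyme. It was the steadiest of the 10 genes over all 6 libraries, at 20.3, 18.6 and 16.3 FPKM in WT and at 20.2, 17.4 and 20.0 FPKM in KO, a 1.25-fold range in CPM. Its log2 fold change of 0.05 had the narrowest interval, from -0.32 to 0.42 (edgeR, adjusted p = 0.980).

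The balance of the decarboxylase and its regulators was also read within each library. Oaz1 to Odc1 was 1.04, 0.982 and 0.933 in WT and 1.00, 1.02 and 0.735 in KO. KO replicate 3 was lowest, and the other KO libraries lay within the WT range. Azin1 to Odc1 was 0.116, 0.146 and 0.111 in WT and 0.114, 0.118 and 0.136 in KO, where every KO library fell within the WT range.

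The spread over the libraries was also read for each genotype, with no test. The median coefficient of variation over 3 libraries was 21.1% in WT and 11.98% in KO, against 21.5% and 15.0% over all tested genes. It was smaller in KO for 9 of the 10 genes, against 64.7% of all tested genes. This rested on WT replicate 1. Without it the WT median was 8.57% for the 10 genes and 13.3% for all tested genes, and the value was smaller in KO for 4 of the 10 genes and for 44.6% of all tested genes. WT replicate 1 was the highest of all 6 libraries for 7 of the 10 genes, a count that was not taken over all tested genes.

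Beyond the 10 genes, 46 genes that feed, move or use polyamines or that regulate the pathway were read from the same fit. Of these, 38 were tested, and none had an adjusted or an unadjusted p under 0.05 in edgeR (16 fitted higher and 22 lower, median log2 fold change -0.03). Genotypes did not overlap for 4 of the 38, against 12.5% of all tested genes.

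Methionine supply is the branch that provides the aminopropyl groups, and 3 of its 8 tested genes were lower in every KO library than in any WT library (6.83% of all tested genes were). Mat2a, the catalytic subunit that makes S-adenosylmethionine outside liver, was at 465, 330.4 and 318 CPM in WT and at 269, 292 and 274 CPM in KO. Its log2 fold change was -0.41 (SE 0.19, edgeR unadjusted p = 0.0611 and adjusted p = 0.778), the smallest p of the 46 genes, and -0.21 without WT replicate 1, and it was -0.49 without WT replicate 2 (edgeR unadjusted p = 0.0397). In the fit without WT replicate 2, 8.82% of tested genes had an unadjusted p under 0.05. The regulatory subunit Mat2b was at 73.7, 55.6 and 59.1 CPM in WT and at 47.4, 51.5 and 52.4 CPM in KO (log2 fold change -0.32, edgeR unadjusted p = 0.1004, and -0.18 without WT replicate 1). Ahcy, which hydrolyses S-adenosylhomocysteine, was at 135, 139 and 129.9 CPM in WT and at 125, 123 and 82.1 CPM in KO (log2 fold change -0.29, edgeR unadjusted p = 0.171, and -0.11 without KO replicate 3). The 3 were singled out after their values were seen, except Mat2a, which the rule for named genes gave. The salvage genes that recover methionine after each aminopropyl transfer overlapped between genotypes, with Mtap, the first of them and named for this step rather than by the rule, at a log2 fold change of -0.07. The median over the 8 genes was -0.06.

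**Figure D5:**
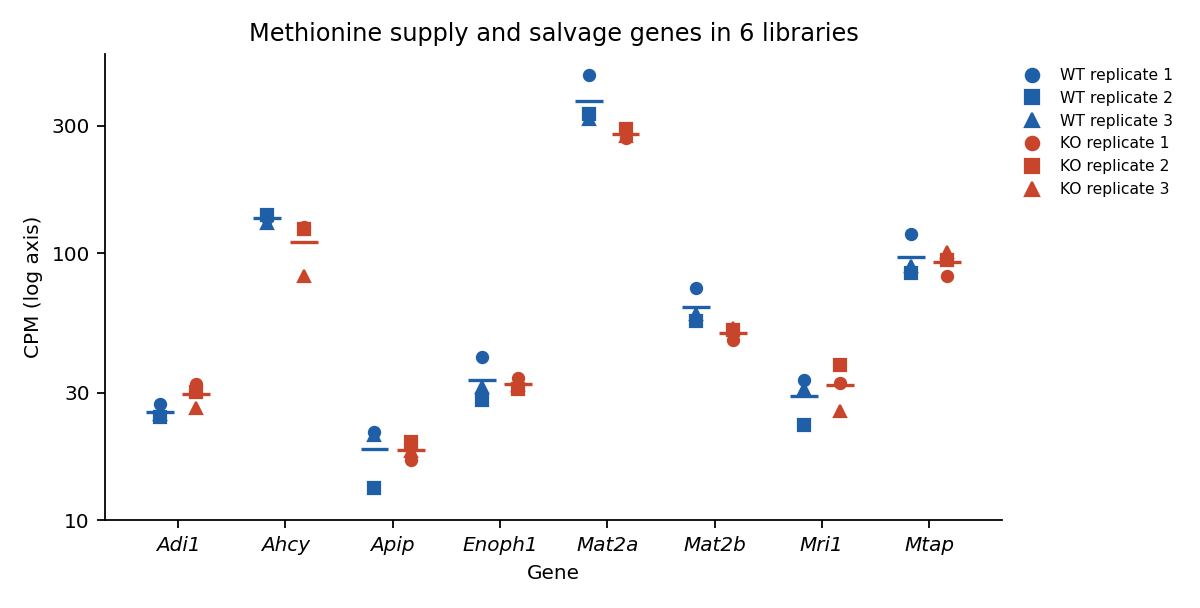
CPM per library on a log axis for the 8 tested genes of methionine supply and salvage, WT in blue and KO in red, with marker shapes for replicates and lines for group means. KO points lie below WT points without overlap for Ahcy, Mat2a and Mat2b and interleave for the other 5.

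In ornithine and arginine supply, 4 of 6 tested genes were fitted higher and 2 lower. Ass1, argininosuccinate synthase, had the smallest p, at 147, 74.7 and 73.9 CPM in WT and at 159.9, 157 and 87.0 CPM in KO. WT replicate 1 lay with KO replicates 1 and 2, and the log2 fold change was 0.45 (edgeR unadjusted p = 0.193) with it and 0.87 without it (edgeR unadjusted p = 0.00526 and adjusted p = 0.239). In the fit without WT replicate 1, 10.2% of tested genes had an unadjusted p under 0.05. Without KO replicate 3 the change was 0.69, and without any other single library it was 0.28 to 0.34. Otc, of the urea cycle in liver, and Agmat had at most 1 count in a library and were not tested.

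In polyamine transport, 3 of 7 tested genes were fitted higher and 4 lower. Slc22a3, an organic cation transporter, was at 0.582, 0.742 and 1.71 CPM in WT and at 0.673, 0.651 and 0.227 CPM in KO, near the floor of detection (log2 fold change -0.97, edgeR unadjusted p = 0.124, and -0.36 without WT replicate 3 and -0.61 without KO replicate 3). Slc3a2, the heavy chain of amino acid transporters that has also been tied to polyamine export, was chosen after its values were seen, as the 1 gene of the 46 that was higher in every KO library. It was at 405, 495 and 529 CPM in WT and at 654, 552 and 563 CPM in KO (log2 fold change 0.31, edgeR unadjusted p = 0.126).

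The hypusination enzymes, which use spermidine to modify eIF5A, overlapped between genotypes. Dohh, the hydroxylase of the second step, was at 15.6, 15.4 and 17.7 CPM in WT and at 28.4, 23.3 and 13.9 CPM in KO, where KO replicate 3 was below WT (log2 fold change 0.43, edgeR unadjusted p = 0.128). Its change was 0.67 without KO replicate 3 (edgeR unadjusted p = 0.00987 and adjusted p = 0.655) and 0.20 without KO replicate 1. In the fit without KO replicate 3, 549 genes fitted higher and 523 fitted lower had an unadjusted p under 0.05, of 15050 tested. In the Myc network, whose products bind the Odc1 gene in many cell types, 4 of 10 genes were fitted higher and 6 lower, and Mxd3 had the smallest p (log2 fold change -0.50, edgeR unadjusted p = 0.125, and -0.21 without KO replicate 3 and -0.78 without KO replicate 2, the latter with an unadjusted p of 0.0363 by edgeR). In the fit without KO replicate 2, 269 genes fitted higher and 457 fitted lower had an unadjusted p under 0.05, of 15085 tested. Of the further antizyme, inhibitor and acetyltransferase genes, Azin2 was at 5.43 to 7.80 CPM in WT and 4.59 to 7.04 CPM in KO (log2 fold change -0.15, edgeR unadjusted p = 0.573). Oaz3, the antizyme of testis, had 1 count in each of 2 libraries and none in the other 4.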

How the data were processed

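Total RNA was extracted by the authors with TRIzol and made into libraries with an NEBNext Ultra kit. Reads were mapped to mm10 with HISAT, per the labels and the paper. The authors deposited raw read counts per gene, for which the methods name DEGSeq2, and FPKM values. Counts divided by FPKM showed that the FPKM values are scaled by median-of-ratios size factors. Mapping used HISAT's default settings. Its version, the annotation and the strand and multi-mapping rules of the counting are not given in the sources used here.

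KO was compared with WT in edgeR 4.0.16 (R 4.3.3) on counts: filterByExpr, TMM factors and the quasi-likelihood test, with p adjusted by Benjamini-Hochberg over 14679 genes and a threshold of 0.05. CPM values use TMM factors. Levels between genes and ratios use the deposited FPKM. Intervals are at 95%. The script was tested on simulated data. Alternatives were other scaling factors and filters, DESeq2 1.42.0, limma 3.58.1 (voom, and log2(FPKM + 1) or log2(FPKM + 0.1)), a replicate block, adding the reads of copies, and each library left out. Copies were GENCODE M21 transcripts (GRCm38) aligned by blastn 2.17.0 for 200 bases or more with an identity of at least 90%. Coordinates of the 10 genes in the tables equalled GENCODE's.

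Shares of pairs of genes whose ratios did not overlap were counted over all pairs of tested genes above 0 in every library, after the ratios had been seen. The 10 genes and the gene lists were chosen with earlier results of these data known. Named genes are the 10; Eif5a; in each further list, markers included, genes with an unadjusted p under 0.05 or else the smallest p; copies with at least 10 counts in a library; and for Odc1 and Sat1 the 3 genes with the highest correlation among those of at least 5 mean CPM. Genes outside this rule are marked as such, apart from Otc, Agmat and Oaz3, named as untested members of their lists, and Echs1, named for its position. The paper's other assays were not analysed here.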

Additional observations from a re-analysis of the deposited data

How the results depend on the processing

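None of the 10 genes, nor of the 38 further pathway genes tested, had an adjusted p under 0.05 in any of the 19 alternatives that tested them, with the lowest adjusted p of the 10 at 0.427 (Sat1 without WT replicate 1, edgeR). Of 190 values, 3 had an unadjusted p below the threshold, the others being Sms without WT replicate 2 and Sms with library size alone. With all libraries kept, the sign turned for Sat1 and Paox, both near 0, and for none of the other 8 genes. Sat1 was -0.0032 on the log2 scale with upper-quartile factors. Paox was 0.0022 with scaling that left out mitochondrial transcripts and the 10 most abundant genes, 0.0055 with no filter, 0.028 with limma-voom, 0.013 and 0.025 with limma on log2(FPKM + 1) and log2(FPKM + 0.1), and 0.019 with a replicate block. Leaving out each library in turn gave -0.048 to 0.19 for Odc1, -0.28 to 0.0054 for Amd1, -0.069 to 0.19 for Smox, -0.22 to 0.54 for Sat1, -0.13 to 0.28 for Paox, -0.033 to 0.14 for Azin1, -0.20 to 0.14 for Oaz1, -0.29 to 0.026 for Oaz2, -0.13 to 0.23 for Eif5a, -0.28 to 0.011 for Azin2, -0.24 to 0.074 for Sms-ps and -0.36 to 1.46 for Gm7993. Over all genes, 1 was called higher and 2 lower in KO, against 0 and 0 with DESeq2 size factors, with library size alone, with at least 10 counts in every library, with limma-voom and with limma on FPKM, 65 and 184 with no filter, 19 and 73 with DESeq2, 7 and 17 with the replicate block, and 0 to 8 and 0 to 48 when a library was left out (8 and 48 without WT replicate 1). The cause of these differences was not tested. Slc22a3 did not reach 10 counts in every library, and Amd2, Sms-ps and Gm7993 have no value of their own where copies were added. Same-numbered libraries did not deviate together (correlations 0.084, -0.16 and 0.105), and only WT replicate 3 and KO replicate 1 correlated best with their own number, so the numbers were not taken as pairs. A repeat with longer alignments of copies and the spread without WT replicate 1 were chosen after seeing the data.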

Other observations

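The genes whose CPM over the 6 libraries was most like that of Odc1, by Pearson correlation of log2 CPM among 11037 genes of at least 5 mean CPM, were 5730409E04Rik (r = 0.996, Spearman's rho 0.886), Mapk11, a stress-activated kinase (r = 0.992, rho 0.886), and Cdk9, the kinase of transcription elongation (r = 0.991, rho 0.943). For Sat1 they were Tnfrsf12a, the receptor of TWEAK (r = 0.992, rho 0.943), Rab29, a small GTPase (r = 0.992, rho 1), and Atp6v1g1, a subunit of the proton pump of acidic vesicles (r = 0.991, rho 1). With 6 libraries such values are common: 181 genes had r above 0.9 with Odc1 and 395 with Sat1. They are given as a description, since all points share the same libraries.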
